A study of Macaca mulatta with 449 samples.

Results

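The genes described here encode the hormones of the anterior pituitary, and they comprise 7 rows among the 30807 genes of the count table. *GH1* (growth hormone, ENSMMUG00000039847) and *PRL* (prolactin, ENSMMUG00000020646) were taken by their Ensembl identifiers. *POMC* (ENSMMUG00000016463), *CGA* (ENSMMUG00000000222), *TSHB* (ENSMMUG00000048427), *LHB* (ENSMMUG00000015793) and *FSHB* (ENSMMUG00000042298) were taken by symbol. Ribosome-depleted RNA was sequenced from 51 brain sub-regions of 8 rhesus macaques, with 1 library per sub-region and animal, and the pituitary (PIT) contributed 8 of them. The young animals were 2 males, Rhesus 7 (4 years) and Rhesus 8 (3.8 years), and 2 females, Rhesus 4 (3.2 years) and Rhesus 10 (5 years). The mid-aged animals were 2 males, Rhesus 2 and Rhesus 3 (10 years each), and 2 females, Rhesus 6 (10 years) and Rhesus 11 (9.8 years). The labels name no treatment, and the reproductive state of the females is not given in the sources used here.

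The anterior pituitary releases its hormones into the blood under the control of the hypothalamus, and separate endocrine cell types make them. Somatotrophs make growth hormone, lactotrophs make prolactin, and corticotrophs cut adrenocorticotropin from the precursor encoded by *POMC*. Thyrotropin, luteinizing hormone and follicle-stimulating hormone are pairs of chains: they share the alpha chain encoded by *CGA*, and each has its own beta chain, encoded by *TSHB*, *LHB* or *FSHB*.

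Reads counted on genes ranged from 7784678 to 31083490 per library (median 10698600), and from 8553816 to 13438044 in PIT. Levels are counts scaled to library size (CPM), with sizes adjusted by the TMM method, and 3 counts in 1 library correspond to 0.0966 to 0.409 CPM. No transcript lengths were used. Shares, ratios and differences between genes are therefore in counts or CPM and do not give the relative amounts of their transcripts. The tissue label was checked with lists of marker genes. Of the pituitary lineage factors, *POU1F1*, *LHX3* and *NEUROD4* had 707, 215 and 163 CPM in PIT and at most 3.96 CPM in the hypothalamus (HTHA) or the cortex. In the same list, *HESX1* had 0.0593 CPM in PIT and 0.494 CPM in HTHA (log2 fold change against the mean of all other groups -2.56, edgeR FDR = 4.07e-07), and *ISL1* had 8.16 and 11.99 CPM. Oligodendrocyte markers summed to 16.7 to 50.6 CPM in PIT, where *MBP* had 12.3 CPM, against 1696 CPM in the cortex. The library of the medial orbital gyrus (MOG) from Rhesus 11 stood apart for the hormone genes, and results that rest on it are given with and without it.

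The 7 genes took 8.91% to 31% of all counts in the 8 PIT libraries, and *PRL* and *GH1* made up most of this share. *PRL* alone took 29.9% of the counts in Rhesus 6 and 22.5% in Rhesus 11, and 2.81% to 9.36% in the other 6 animals. *GH1* took 9.23% in Rhesus 8 and 0.294% in Rhesus 6. Exact (Clopper-Pearson) 95% intervals of the shares of all members were at most 0.0559 percentage points wide, which covers counting error only. In such bulk samples, fewer cells of a type and less RNA per cell cannot be told apart.

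To ask how far each gene was restricted to the pituitary, counts were summed per animal into 16 region groups and PIT was compared with the mean of the other 15 by edgeR, with a fold above 2 required against each of them. All 7 genes passed, against 4.47% of the 16829 genes tested. In each animal, the level in PIT also exceeded the median of the other 50 sub-regions for all 7 genes (8 of 8 animals; p = 0.0078125 by an exact permutation of signs, two-sided, which is the lowest value that 8 animals can give). The 7 genes differed widely in the distance to the next highest group. The ratio of the PIT median to the next median was 8333 for *GH1* and 4228 for *PRL*, both against the globus pallidus (GP). It was 668 for *POMC* against HTHA, 82.6 for *TSHB* against the thalamus (THA) and 39.3 for *LHB* against the corpus callosum (CC). *CGA* had 2444 CPM in PIT at the median and 0.305 CPM in GP, a level near that of 3 counts. *FSHB* stood at the other end, with medians of 52.5 CPM in PIT and 40.8 CPM in the amygdala (AMY), a ratio of 1.29. The call of *FSHB* rests on the fitted mean over animals, which was higher in PIT than in AMY by 2.01 on the log2 scale. Within animals, PIT lay above AMY in 4 of 8, and the paired difference did not pass its test (exact permutation p = 0.461).

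**Figure D1:**
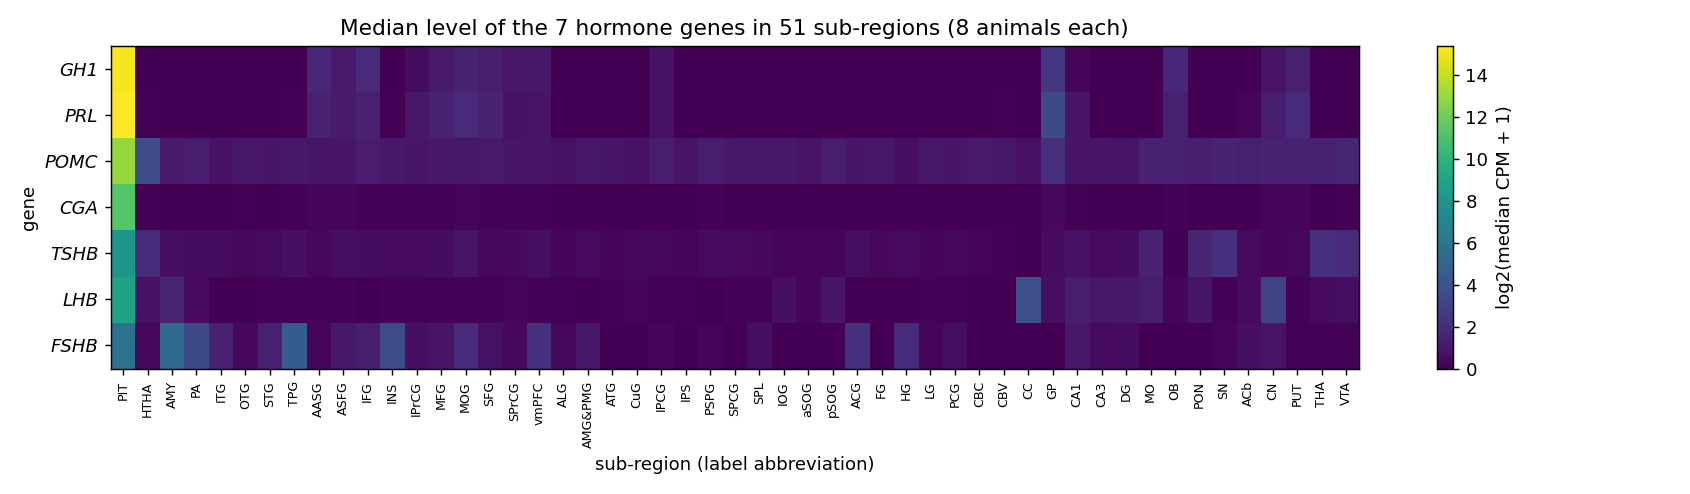
Median CPM of the 7 hormone genes (rows) in 51 sub-regions (columns, named by the abbreviations of the labels), as log2(median CPM + 1), each over 8 animals. PIT, at the left, is the brightest column for all 7 genes, and *FSHB* also shows levels in AMY, the temporal polar gyrus (TPG), the insula (INS) and the entorhinal and perirhinal cortex (PA).

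Growth hormone transcripts separated the pituitaries by age. *GH1* had 50441, 84822, 62363 and 73887 CPM in the young Rhesus 7, 8, 4 and 10. It had 9896, 22891, 3419 and 12376 CPM in the mid-aged Rhesus 2, 3, 6 and 11. All 4 young pituitaries lay above all 4 mid-aged ones, with means of 67878 ± 14806 and 12146 ± 8098 CPM (SD, n = 4 each). The log2 fold change, mid-aged against young with sex as a covariate, was -2.56 (SE 0.50, edgeR FDR = 0.158), which did not pass the threshold of 0.1. Of the 14595 genes tested, 1.99% had all mid-aged values below all young ones and 1.96% had them above, and *GH1* was the 1 member that did not overlap, in the lower direction. Genes for growth hormone copies lie side by side in the RefSeq annotation, and a reference table gives this identifier the symbol *GHV*, so how the reads were divided among the copies is uncertain.

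Prolactin transcripts were highest in the mid-aged females. *PRL* had 26576, 25799, 43947 and 26921 CPM in the young Rhesus 7, 8, 4 and 10. The mid-aged males, Rhesus 2 and 3, had 82866 and 40258 CPM, and the mid-aged females, Rhesus 6 and 11, had 347799 and 234541 CPM. The age groups overlapped at 1 pair, since the mid-aged Rhesus 3 lay below the young Rhesus 4. The log2 fold change was 2.14 (SE 0.50, edgeR FDR = 0.268) for mid-aged against young and 1.38 (SE 0.49, edgeR FDR = 0.218) for female against male. The age effect was larger in females by 1.87 on the log2 scale (SE 0.65, unadjusted p = 0.0202, edgeR FDR = 0.921), and the difference did not pass the threshold.

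The ratio of *GH1* to *PRL* spread wider than either gene alone. In counts it was 1.42, 1.90, 2.74 and 3.29 in the young Rhesus 4, 7, 10 and 8. It was 0.569 and 0.119 in the mid-aged males, Rhesus 3 and 2, and 0.0528 and 0.00983 in the mid-aged females, Rhesus 11 and 6. The young animals did not overlap with the mid-aged ones. The share of all gene pairs whose ratio separates the age groups was not computed, so this separation has no background beside it.

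*POMC* was the most even of the 7 genes. Its lowest, median and highest levels in PIT were 6963, 7753 and 11868 CPM, a span of 1.70-fold, whereas the span was 24.8-fold for *GH1* and 13.5-fold for *PRL*. The log2 fold changes were 0.19 (SE 0.22) for age and -0.02 (SE 0.22) for sex, with edgeR FDR of 0.931 and 0.966. Of 4 genes listed for the intermediate lobe, *PCSK2*, a protease that acts on the *POMC* product, ranged from 5.51 to 127.5 CPM in PIT. *PAX7*, a factor of that lobe, ranged from 0.0940 to 4.62 CPM. *PCSK2* does not mark PIT here, with means of 45.7 CPM in PIT, 118 CPM in HTHA and 184 CPM in the cortex. In the same list, *DRD2* had a mean of 103 CPM in PIT and *OPRM1* of 0.188 CPM.

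Of the chains of the glycoprotein hormones, the shared alpha chain, *CGA*, had 2310 to 5297 CPM in the young and 836 to 2578 CPM in the mid-aged animals. The age groups overlapped, and the log2 fold change was -1.08 (SE 0.37, edgeR FDR = 0.518). The thyrotropin chain *TSHB* spanned 6.82-fold, from 64.2 CPM in the male Rhesus 3 to 438 CPM in the female Rhesus 6. The males Rhesus 3 and 8 were lowest, but the male Rhesus 2 had 425 CPM. The male Rhesus 7 (246 CPM) lay above the female Rhesus 10 (215 CPM). Its log2 fold change was 0.52 (SE 0.53, edgeR FDR = 0.915) for age and 0.74 (SE 0.53, edgeR FDR = 0.397) for sex.

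The beta chains of the gonadotropins had the widest spread of the 7 genes. *LHB* had 758, 1242, 697 and 702 CPM in the males Rhesus 2, 3, 7 and 8. The females Rhesus 4, 6, 10 and 11 had 261, 2.65, 6.75 and 73.9 CPM, which for Rhesus 6 rested on 24 counts. All females lay below all males, and the lowest and highest pituitaries differed 469-fold. The log2 fold change, female against male with age as a covariate, was -3.49 (SE 1.19, edgeR FDR = 0.218). *LHB* was the 1 member whose sexes did not overlap. Of all genes tested, 4.54% did not overlap with females lower and 2.95% with females higher.

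*FSHB* had 26.6, 55.1, 5.15 and 13.6 CPM in the males Rhesus 2, 3, 7 and 8, and 473, 184, 49.9 and 1279 CPM in the females Rhesus 4, 6, 10 and 11. The sexes overlapped at 1 pair, since the male Rhesus 3 lay above the female Rhesus 10. The log2 fold change was 4.51 (SE 0.85, edgeR FDR = 0.218) for sex and 1.80 (SE 0.76, edgeR FDR = 0.661) for age. Counts of *FSHB* were 0.00738 to 0.0444 times those of *LHB* in the males and 1.81 to 69.6 times in the females, so that this ratio did not overlap between the sexes. The share of all gene pairs whose ratio separates the sexes was not computed, so this too has no background beside it.

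**Figure D2:**
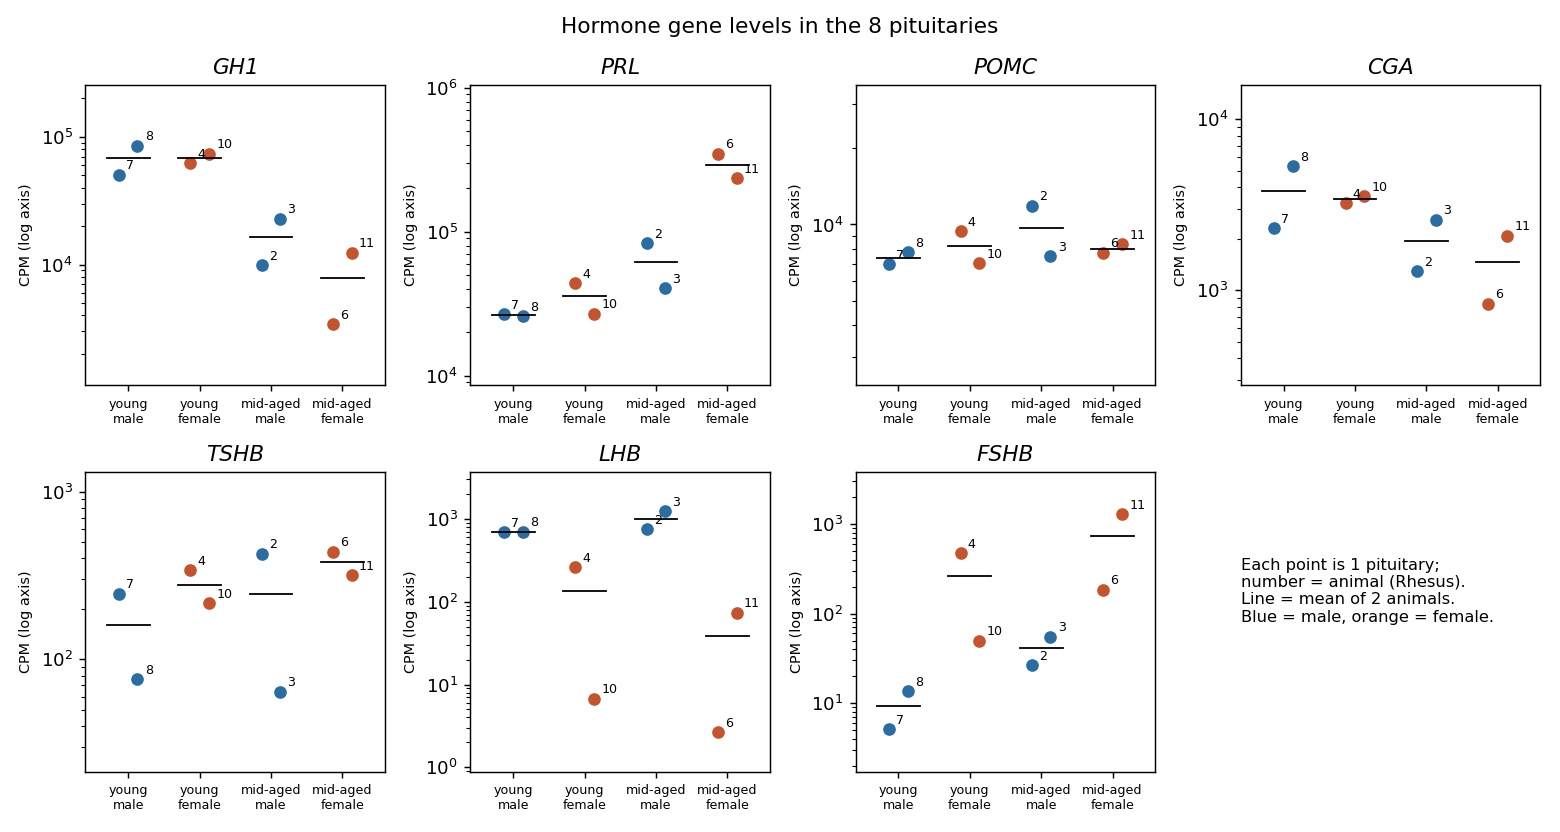
CPM (log axis) of the 7 hormone genes in each of the 8 pituitaries, by age stage and sex, with the animal's number beside each point and a line at the mean of 2 animals. *GH1* is lower in all mid-aged than in all young animals, *PRL* is highest in Rhesus 6 and 11, *LHB* is lower in all females, and *POMC* is nearly level.

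No hormone gene was called for age or sex in PIT by edgeR (FDR < 0.1 and an absolute log2 fold change above 1), with 0 of 7 in each direction. For age 4 of 7 had an unadjusted p under 0.05, among 1051 of all genes, and for sex 3 of 7, among 3111. Few genes were called at all, with 0.0411% of all genes higher and 0.164% lower with age, and 0.0343% higher and 0.0891% lower in females. The difference of the age effect between the sexes was called for 0% of 15400 genes, and 1 of 7 members, *PRL*, had an unadjusted p under 0.05. DESeq2 called *GH1* (FDR = 2.51e-07) and *CGA* (FDR = 0.0993) for age, and *FSHB* (FDR = 0.000253) and *LHB* (FDR = 0.0753) for sex. It also called more of all genes, 1.08% for age and 4.26% for sex, in either direction. The library of Rhesus 7 decided calls as well, and without it 1.02% of all genes were called for age and 13.4% for sex. Without it, edgeR called *GH1* (FDR = 0.0599) and *PRL* (FDR = 0.0930) for age, and *FSHB* (FDR = 0.0116), *PRL* (FDR = 0.0436) and *LHB* (FDR = 0.0588) for sex.

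Markers of other cells in PIT were summed in each animal. Those of neurons summed to 398 to 538 CPM, a sum held mostly by *SNAP25* (mean 322 CPM), whereas *SLC17A7* had 0.643 CPM. Those of endothelial cells (5 of 6 genes with a row) summed to 34.3 to 82.1 CPM. Those of choroid plexus (4 of 6) summed to 32.1 to 88.4 CPM and of blood (3 of 6) to 3.53 to 17.6 CPM. Those of the posterior lobe and astroglia (7 of 7 genes with a row) summed to 12 to 93.9 CPM in males and 6.62 to 63.8 CPM in females. Of them, *NKX2-1* and *RAX*, which mark cells of the posterior lobe, were at 0 in at least 1 pituitary and reached 21.4 and 22.95 CPM. The sum was 34.5 to 93.9 CPM in young and 6.62 to 78.0 CPM in mid-aged animals, and its part in the results for age and sex was not tested. The 2 of 4 folliculostellate and stem-like markers with a row, *ALDH1A1* and *CD44*, summed to 215 to 335 CPM in young and 493.6 to 555.2 CPM in mid-aged animals. *ALDH1A1* made up nearly all of this sum, with means of 398 CPM for *ALDH1A1* and 5.03 CPM for *CD44*. *ALDH1A1* was higher in mid-aged animals by 0.95 on the log2 scale (edgeR FDR = 0.0848), below the size required for a call. *CD44* had -0.07 (edgeR FDR = 0.984). *ALDH1A1* is not confined to PIT, with a mean of 240 CPM in the cortex.

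Other genes of the hormone pathway were compared in the same way, where 4.47% of all genes were called higher in PIT. Of 12 receptors for hypothalamic and feedback signals, 7 were called, among them *GHRHR*, the receptor of the growth hormone releasing hormone (946 CPM), and *AVPR1B*, a vasopressin receptor of corticotrophs (174 CPM). The dopamine receptor *DRD2*, through which lactotrophs are inhibited, had 103 CPM and a log2 fold change of 3.64 (edgeR FDR = 2.17e-35) but not a fold above 2 against each group. Of 9 lineage factors with a row, 6 were called. Of 8 genes of hormone processing and secretory granules, 2 were called, *CHGB* (10350 CPM) and *CHGA* (870 CPM). Of 8 releasing hormones and related genes of the hypothalamus, 6 passed the filter and 0 were called by edgeR. By an FDR under 0.05 alone, which 43% of all genes passed in the higher and 39.2% in the lower direction, *TRH* (1.22) and *TH* (2.24) were higher, and *SST* (-6.49) and *CRH* (-7.55) were lower on the log2 scale. The median log2 fold change was 4.41 for the receptors, 8.63 for the lineage factors, 1.97 for the processing genes and -2.47 for the releasing hormones, against 0.04 over all genes tested.

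In the same lists, 0 genes were called for age or sex in PIT by edgeR. For age, the median log2 fold change was 0.15 for the 12 receptors and 0.02 for the 8 lineage factors tested, against -0.02 over all genes. It was -0.30 for the 8 processing genes and 0.54 for the 3 releasing hormones tested. The remaining lists ranged from -1.82 for the posterior lobe and astroglia (6 genes) to 1.21 for blood (1 gene). Among them, receptors of the pituitary hormones had -1.72 and the intermediate lobe -1.64 (3 genes each). For sex, these 2 lists had 0.81 and -1.65, and the posterior lobe and astroglia -1.44. *GHRHR*, whose levels in PIT ranged from 258 to 1833 CPM, had -1.29 for age (edgeR FDR = 0.330). The estrogen receptor *ESR1* had 1.83 for sex (edgeR FDR = 0.218). *PRLR*, the prolactin receptor, had -1.74 for age (edgeR FDR = 0.112).

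In PIT, *LHB* and a gene around it ranked the animals in the same order. In the RefSeq annotation, *LHB* lies within the span of *RUVBL2*, which encodes a widely used ATPase. In PIT *RUVBL2* had 797, 1220, 702 and 712 CPM in the males Rhesus 2, 3, 7 and 8, and 287, 22.4, 37.0 and 94.98 CPM in the females Rhesus 4, 6, 10 and 11. In each pituitary it lay within -22.1 to 38.5 CPM of *LHB*, whereas its mean in the other 50 sub-regions ranged from 22.2 to 46.5 CPM. How the authors' counting treated reads on overlapping genes and strands is not given in the sources used here, so the reads of *LHB* and *RUVBL2* cannot be told apart.

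Outside the pituitary, *FSHB* was the most abundant in AMY, in all 8 animals. Its levels there were 46.3, 37.9, 22.6 and 43.6 CPM in Rhesus 2, 3, 4 and 6, and 37.0, 37.5, 80.8 and 53.6 CPM in Rhesus 7, 8, 10 and 11. These values rested on 257 to 680 counts. In 4 animals, the males Rhesus 2, 7 and 8 and the female Rhesus 10, AMY exceeded the animal's own pituitary. PIT and AMY did not differ beyond their spread, with a mean log2 difference of 0.75 ± 2.66 on the log2(CPM + 1) scale (SD, n = 8; exact permutation p = 0.461).

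The next medians were 22.5 CPM in TPG, 10.6 CPM in INS and 9.51 CPM in PA. AMY exceeded TPG and TPG exceeded INS in 8 of 8 animals (p = 0.0078125 each by the exact permutation of signs), and INS and PA did not differ beyond their spread (p = 0.391). PA in turn exceeded the anterior cingular gyrus (ACG, 3.19 CPM) in 8 of 8 animals (exact permutation p = 0.0078125). From ACG over the ventromedial prefrontal cortex (vmPFC, 3.13 CPM), MOG (2.69 CPM) and the hippocampal gyrus (2.61 CPM) to the inferior temporal gyrus (1.88 CPM), no neighbours differed beyond their spread (exact permutation p of 0.141 to 0.562). The p-values of these neighbours are not adjusted for the number of pairs.

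Across the 31 cortical sub-regions, summed per animal into 5 lobes, *FSHB* differed strongly (edgeR FDR = 4.62e-22), as did 61.5% of 17478 genes. The temporal lobe had 3.45, 6.55 and 8.81 CPM as its lowest, median and highest animal, the frontal lobe 1.43, 2.18 and 6.07 CPM, and the limbic lobe 0.874, 1.42 and 2.90 CPM. The parietal lobe had 0.15, 0.313 and 0.596 CPM. The occipital lobe had 0 to 3 counts per animal over its 3 sub-regions, at most 0.0759 CPM, and did not overlap with any other lobe.

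Against the mean of the other 4 lobes, the log2 fold change of *FSHB* was 3.93 (SE 0.14) in the temporal, 2.33 (SE 0.15) in the frontal and 1.3 (SE 0.18) in the limbic lobe. Each had an edgeR FDR under 0.05, and 13.7%, 23% and 8.51% of all genes were higher in these lobes. The change was -6.21 (SE 0.36) in the occipital lobe and -1.35 (SE 0.33, edgeR FDR = 0.00628) in the parietal lobe, where 26.4% and 4.96% of genes were lower. With the occipital lobe at or under 3 counts, its fitted change depends on the prior count and is no bound.

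Sub-regions within a lobe also differed. In the temporal lobe, TPG had 21.4 ± 6.21 CPM and the inferior temporal gyrus 2.41 ± 1.70 CPM (SD, n = 8), a difference of 2.80 ± 0.67 on the log2(CPM + 1) scale in 8 of 8 animals (exact permutation p = 0.0078125). In the frontal lobe, INS had 11.97 ± 5.56 CPM and the middle frontal gyrus 0.876 ± 0.555 CPM, with a difference of 2.72 ± 0.58 in 8 of 8 animals (exact permutation p = 0.0078125). Without INS and TPG, left out after the data were seen, the log2 fold change fell to 1.99 in the temporal and 1.96 in the frontal lobe and was 2.10 in the limbic lobe. The parietal lobe then had -0.59 (edgeR FDR = 0.242). In the parietal lobe the highest median was 1.08 CPM, in the sub-region that the labels abbreviate as AMG&PMG.

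**Figure D3:**
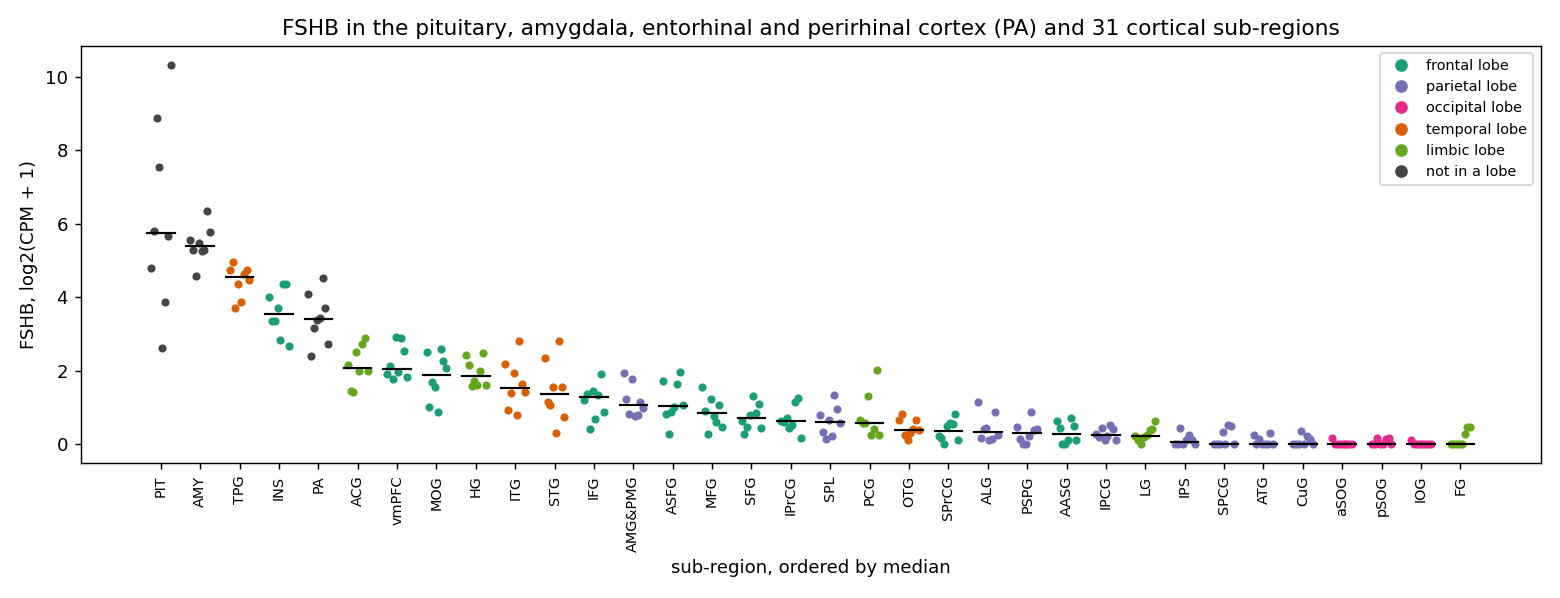
*FSHB* in PIT, AMY, PA and the 31 cortical sub-regions, as log2(CPM + 1), with 1 point per animal, a line at the median and colours for the lobes. AMY lies within the range of the 8 pituitaries, TPG and INS lead the cortex, and the 3 occipital sub-regions lie at 0 or near it.

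The genes with a pattern most like that of *FSHB* over the 50 sub-regions outside the pituitary were *TAF7L*, *IL37* and *SERPINB13* (Pearson's *r* of mean log2(CPM + 1) of 0.84, 0.83 and 0.82, among 13488 genes). The sub-regions share animals and library preparation, and these values are descriptive. Of the neighbouring genes in the annotation, *KCNA4* had *r* = 0.31 and *ARL14EP* had *r* = -0.03 with *FSHB*.

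*POMC* outside the pituitary was highest in HTHA, where neurons of the arcuate nucleus are known to make it. HTHA had 10.6, 13.9, 12.6 and 27.7 CPM in Rhesus 2, 3, 4 and 6, and 9.66, 18.6, 1.85 and 3.04 CPM in Rhesus 7, 8, 10 and 11. The last 2 animals were low, with 19 and 38 counts. The next group was GP, with 0.848 to 10.9 CPM. The mean difference between HTHA and GP was 1.27 ± 1.06 on the log2(CPM + 1) scale (SD, n = 8; HTHA higher in 6 of 8 animals, exact permutation p = 0.0312), and Rhesus 10 and 11 had the opposite order. From GP down to THA, no neighbouring groups differed beyond their spread (exact permutation p of 0.188 to 0.930). The genes most like *POMC* over these 50 sub-regions were *OXT*, *PMCH* and *FEZF1* (*r* of 0.83, 0.82 and 0.81), of which *OXT* and *PMCH* encode neuropeptides of the hypothalamus.

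*TSHB* showed a low level in the diencephalon and brain stem. Its median was 3.41 CPM in THA and 3.31 CPM in the substantia nigra (SN), which did not differ beyond their spread (exact permutation p = 0.992). SN exceeded HTHA (2.65 CPM) in 8 of 8 animals (exact permutation p = 0.0078125). From HTHA over the ventral tegmental area (2.60 CPM) and the pons (2.13 CPM) to the medulla oblongata (1.88 CPM), no neighbours differed beyond their spread (exact permutation p of 0.227 to 0.953). The medulla oblongata exceeded the next region group, the hippocampus (0.531 CPM), in 8 of 8 animals (mean log2 difference 0.77, exact permutation p = 0.0078125). Over the 50 sub-regions *TSHB* was most like *CMTM2*, *DRD4* and *FOXB1* (*r* of 0.90, 0.89 and 0.86), and it had *r* = 0.79 with *TSPAN2*, the next gene in the annotation, a tetraspanin of oligodendrocytes. How much of these counts came from reads of *TSPAN2* was not tested.

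*LHB* outside the pituitary was highest in CC, a tract of white matter, and in the caudate nucleus (CN). CC had 9.69, 14.4, 14.5 and 10.0 CPM in Rhesus 2, 3, 4 and 6, and 32.3, 25.6, 8.23 and 2.70 CPM in Rhesus 7, 8, 10 and 11. In the females Rhesus 6 and 10, CC lay above the animal's own pituitary. The mean difference between PIT and CC was 3.52 ± 2.89 on the log2(CPM + 1) scale (SD, n = 8; PIT higher in 6 of 8 animals, exact permutation p = 0.0312).

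CN had 1.28 to 22.4 CPM and did not differ from CC beyond the spread (exact permutation p = 0.0938). It exceeded the putamen (mean 0.760 CPM) and the nucleus accumbens (mean 0.944 CPM) in 8 of 8 animals (exact permutation p = 0.0078125 each). In the cortex, *LHB* was higher in the occipital lobe, by 2.69 on the log2 scale against the mean of the other 4 lobes (SE 0.24, edgeR FDR = 1.43e-11). Of the 17478 genes tested, 29.9% were higher in this lobe. Levels were low, with a median of 0.154 CPM over the cortex, which rested on 13 to 95 counts per animal summed over the cortical sub-regions. The posterior superior occipital gyrus had 0.943 CPM at the median. The genes most like *LHB* over the 50 sub-regions were *CFAP161*, *SLC47A2* and *DRC7* (*r* of 0.94 each), and *CFAP161* and *DRC7* encode proteins of motile cilia. *RUVBL2* had *r* = 0.80 with it and was highest in CC, at 46.5 CPM.

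**Figure D4:**
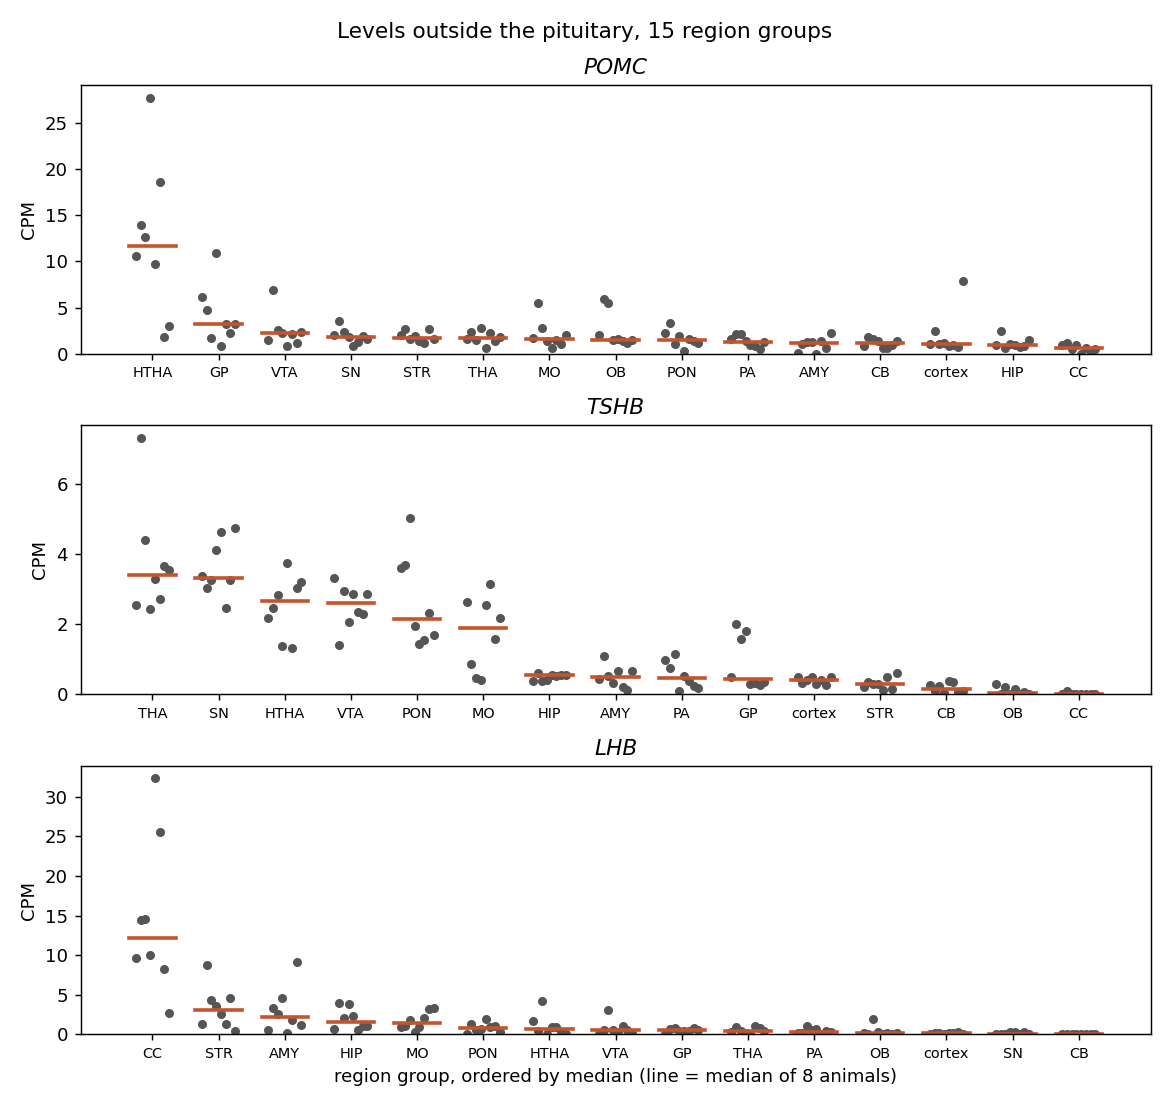
CPM of *POMC*, *TSHB* and *LHB* in the 15 region groups outside the pituitary, with 1 point per animal and a line at the median. HTHA leads for *POMC*, THA and SN for *TSHB* and CC for *LHB*, and the highest point of *POMC* in the cortex is Rhesus 11, whose MOG library is included.

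Over the 15 groups outside the pituitary, 6 of the 7 members passed the filter and all 6 differed (edgeR FDR < 0.05), a share that the background reached as well, with 99.4% of 16639 genes. *CGA* did not pass the filter. It had 0 counts in 229 of 400 libraries and at most 3 counts in 372, and where it had 0 counts a level of up to 3 counts is not detectable. *CGA* was also the member whose pattern over all 51 sub-regions was most closely matched, by *GHRHR*, *TNS4* and *LHX3* (*r* of 0.999, 0.997 and 0.996). With medians of 2444 CPM in PIT and at most 0.305 CPM in any other group, these values rest on PIT. Any gene nearly confined to PIT would reach a high *r*, and the order of the other sub-regions hardly enters.

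*GH1* and *PRL* had 0 counts in 262 and 233 of the 400 libraries outside the pituitary, and at most 3 counts in 268 and 265. The most counts were held by the MOG library of Rhesus 11, with 26378 for *GH1*, 9014 for *PRL*, 2433 for *POMC* and 1212 for *CGA*. The MOG libraries of the other 7 animals had at most 60, 208, 15 and 3 counts, and the other cortical libraries of Rhesus 11 at most 156, 41, 21 and 5. Its counts corresponded to 2.36%, 2.22%, 2.29% and 2.25% of those in the pituitary of Rhesus 10 for the same 4 genes, 2.24%, 2.52%, 2.26% and 1.65% of those of Rhesus 8, and 3.41%, 2.21%, 2.28% and 3.42% of those of Rhesus 7. Against the pituitaries of all 8 animals, the share ranged from 2.24% to 85.1% for *GH1* and from 0.286% to 2.52% for *PRL*. The counts of the 4 genes corresponded to 22.4%, 0.403%, 3.06% and 6.12% of those in the pituitary of Rhesus 11 itself. *TSHB*, with 87 counts, corresponded to 2.68% and 2.87%, and *FSHB*, with 45 counts, to 5.98% and 0.369%, of those in Rhesus 10 and Rhesus 11. *LHB* had 1 count, or 0.980% and 0.142%. *FSHB* in this library lay within the range of the other MOG libraries, whose highest count was 84.

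This library bears on the cortical lobes. With it, *GH1*, *PRL*, *CGA* and *POMC* were higher in the frontal lobe by 4.22, 3.02, 3.76 and 1.02 on the log2 scale. *TSHB* was higher there by 0.75. Each had an edgeR FDR under 0.05, as did 23% of all genes in this direction. Without it, left out after the data were seen, the changes of the first 4 genes were 2.14, 1.64, 1.63 and 0.10. That of *POMC* no longer passed (edgeR FDR = 0.503), and that of *TSHB* was 0.50. The frontal sub-regions all lie among those numbered 1 to 15 in the sample names, a run described below. The part of this numbering in the difference between lobes was not tested. Differences between the 5 lobes then had an FDR of 0.0161 for *GH1*, 0.124 for *PRL*, 0.000195 for *CGA*, 0.153 for *POMC* and 0.0101 for *TSHB*. With the library, 61.5% of all genes differed between the lobes. For *FSHB* the 5 lobes kept their directions and calls.

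In the other libraries with at least 40 counts of *GH1* and *PRL* together, the ratio of the 2 genes differed between runs of sub-regions that are adjacent in the numbering of the sample names. The limits of the runs, 1 to 15 and 36 to 51, were chosen after the ratios were seen. In Rhesus 11, the sub-regions numbered 1 to 15 (12 libraries without MOG) had ratios of 1.93 to 4.64, and those numbered 36 to 51 (15 libraries) had 0.0236 to 0.107, where the animal's own pituitary had 0.0528. In Rhesus 7 the first run (14 libraries) had 0.129 to 0.376 and the last run (7 libraries) 1.67 to 3.35, against 1.90 in its pituitary. In Rhesus 3 the first run (15 libraries) had 0.0761 to 0.327, against 0.569 in its pituitary. In its last run the only 2 libraries had 0.593 and 0.875. In Rhesus 4 the first run (9 libraries) had 0.325 to 0.875 and the last (6 libraries) 1.36 to 2.14, against 1.42 in its pituitary. In these 4 animals the first and last runs did not overlap, and the last run lay nearer to the animal's own pituitary. Rhesus 8 had the opposite order, with 1.59 to 4.00 in the first run (8 libraries), around its own 3.29, and 0.343 in the 1 library of the last run.

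The 20 libraries numbered 16 to 35 belong to neither run. In Rhesus 4 they had ratios of 0.324 to 2.87 (9 libraries), which overlap both runs. In Rhesus 7 they had 0.177 to 0.360 (7 libraries), within the range of the first run. In Rhesus 8 they had 0.291 to 3.20 (3 libraries), and in Rhesus 6 the 1 library had 0.0686.

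Of the 121 such libraries, 33 had a ratio nearest to the pituitary of their own animal. The ratio in the GP library was nearest to that of the animal's own pituitary in 6 of the 7 animals with counts, for instance 0.0116 and 0.00983 in Rhesus 6, whose GP library had 2923 *PRL* counts. In Rhesus 8 the GP library had 0.343 and the pituitary 3.29. GP is numbered 51 and PIT 52 in the sample names. What these runs share besides their numbers is not given in the sources used here, and its part in the low levels of *GH1* and *PRL* outside the pituitary was not tested.

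**Figure D5:**
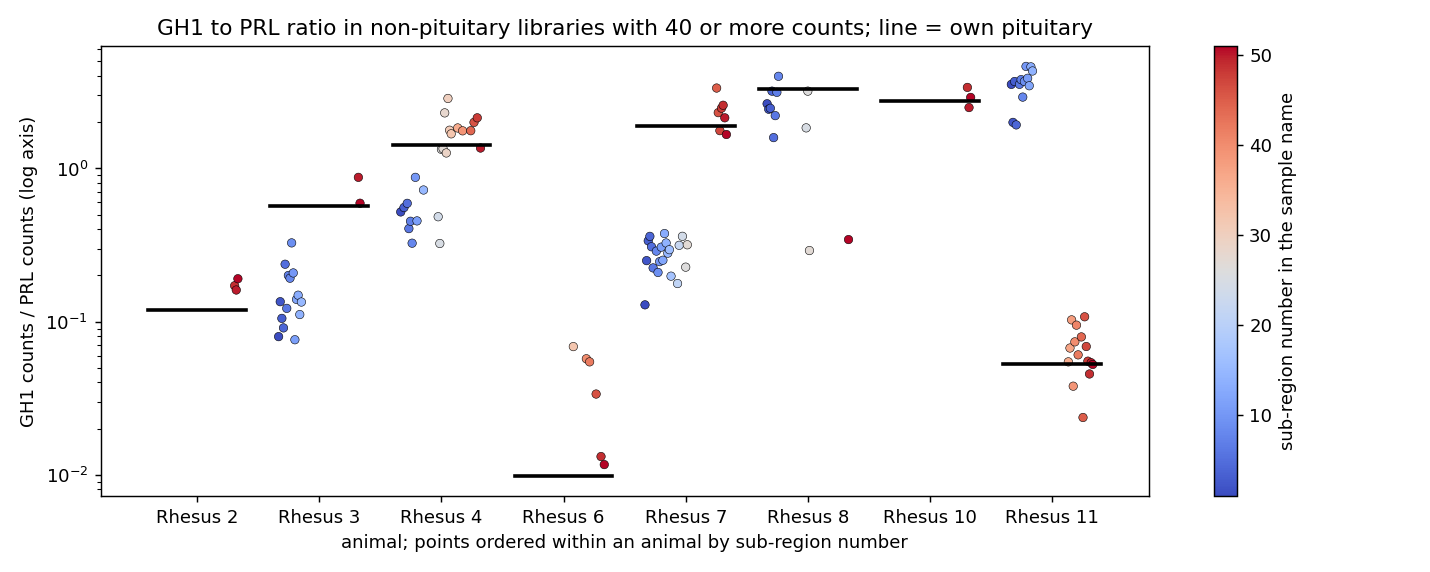
Ratio of *GH1* to *PRL* counts (log axis) in the 121 libraries outside the pituitary with at least 40 counts of both genes together, by animal, with points placed and coloured by the sub-region's number and a line at the ratio of the animal's own pituitary. In Rhesus 3, 4, 7 and 11 the sub-regions numbered 1 to 15 (blue) lie apart from those numbered 36 to 51 (red), and the red points lie nearer to the line.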

How the data were processed

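Ribo-zero RNA-seq libraries of 51 sub-regions and 8 animals were used. The authors trimmed samples of poor read quality with Trim Galore 0.4.4, aligned reads to Mmul 8.0.1 with HISAT2 2.0.5 and counted them on Ensembl genes with HTSeq 0.6.1, and the deposited table holds raw counts of reads for each gene. The strand setting is not given in the sources used here. Every column was mapped to a sample (0 left over). Symbols were given by a reference table for 17572 genes, including 5 of the 7 members, and by the paper's supplement for 416 more, including *POMC* and *TSHB*. RefSeq (T2T-MMU8v2.0) was used only for which genes lie side by side.

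Tests used edgeR 4.0.16 in R 4.3.3 (quasi-likelihood F test, TMM, filterByExpr, Benjamini-Hochberg over all genes tested). The SE is the absolute log2 fold change divided by the square root of F. Counts were summed per animal into 16 region groups or 5 lobes, with the animal as a block. Samples with the same number come from the same animal, and their deviations from the group means had a median correlation of 0.413, against -0.055 between animals. Age (young, at most 5 years, against mid-aged) and sex were tested in PIT with the other as a covariate. Single values were compared by two-sided exact sign-flip permutation tests over 8 animals on log2(CPM + 1). Depth was 7784678 to 31083490 counts per library. In a simulation of the age test on 14595 genes, 92 of 100 genes changed 4-fold and 100 of 100 changed 16-fold were called, with 14 other calls. Every simulated gene was given the same dispersion of 0.15. No difference between the sexes was simulated. The simulation therefore does not give the power for the hormone genes, each of which has its own spread between animals, wide for *LHB* and *FSHB*. In the data, *GH1* was not called for age at a log2 fold change of -2.56 (SE 0.50).

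The members and gene lists were chosen with earlier results of these data known. The named genes are the members, the 3 genes most correlated with each (at least 1 CPM in a sub-region) and, per list, up to 4 with the highest level in PIT. *ESR1*, *CRH*, *HESX1*, *ISL1*, *RUVBL2*, *TSPAN2*, *ARL14EP*, *KCNA4*, *NKX2-1* and *RAX* were named after their values were seen. Alternatives were DESeq2 1.42.0, its size factors in edgeR, no filter, no block, no covariate, TMM without the 7 genes, each animal left out and a pseudocount of 0.1. Leaving out the MOG library of Rhesus 11, or INS and TPG, was added after seeing the data. The 8 midbrain samples and 33 ATAC-seq samples were not used here. For age and sex the animals compared are separate, so those p-values measure the spread between animals. Regions and lobes were compared within the same 8 animals. Those p-values measure the spread that remains once differences between whole animals are accounted for.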

Additional observations from a re-analysis of the deposited data

Results flagged for a closer look

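In 10 of 50 groups of 4 or 8 samples, 1 animal lay farther from the others than Dixon's 95% criterion allows. The criterion flags about 1 in 20 groups by chance only where values are normally distributed. It was applied to CPM without a log scale, and several of the groups share animals. The number flagged therefore has no valid chance rate beside it. For *PRL*, the highest of the 4 young pituitaries was Rhesus 4, with 43947 CPM. For *POMC*, the highest of the 4 male pituitaries was Rhesus 2, with 11868 CPM, and for *LHB* it was Rhesus 3, with 1242 CPM. For *FSHB*, Rhesus 11 was the highest of all 8 and of the 4 mid-aged pituitaries, with 1279 CPM, and Rhesus 4 the highest of the 4 young ones, with 473 CPM.

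Outside the pituitary, *GH1* in MOG reached 1854 CPM in Rhesus 11, and *PRL* in GP reached 275 CPM in Rhesus 6. *TSHB* in THA reached 7.31 CPM in Rhesus 3. *FSHB* in the occipital lobe reached 0.0759 CPM in Rhesus 2, which corresponds to at most 3 counts.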

How the results depend on the processing

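The comparison of PIT with the other groups called all 7 members under every alternative run, including no block. For age, 0 members were called in the fit as reported, 2 by DESeq2, 3 without the filter on low counts, and 0 to 2 when 1 animal was left out. For sex, the numbers were 0, 2 and 3, and 0 to 3 when 1 animal was left out, with 3 reached without Rhesus 7. The difference of the age effect between the sexes was called for 1 member without the filter. No paired analysis was possible for age and sex because the groups compared share no animals.

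Counts over all genes moved by more than 1.5 times. Without the filter, the count for PIT against other groups was 1258 in place of 753. For age, 30 genes were called as reported, 157 by DESeq2, 170 without the filter, 0 without the covariate and 0 to 151 with 1 animal left out. For sex, 18 were called as reported, 562 by DESeq2, 684 without the filter and 13 to 1983 with 1 animal left out. Without the filter, 30 genes were called for the difference between the sexes.

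For *FSHB*, the frontal, limbic, occipital and temporal lobes kept their calls under every alternative run. The parietal lobe did not pass without the replicate block (-1.35, FDR = 0.0561), without INS and TPG (-0.59), or without Rhesus 2, within a range of -1.39 to -1.29 when 1 animal was left out.

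Directions turned for uncalled changes only. *LHB* for age was 0.30 without the covariate and -0.97 to 1.19 with 1 animal left out (above 0 without Rhesus 4 or 6), and *TSHB* for age was -0.17 to 0.92 (below 0 without Rhesus 2). For sex, *POMC* was -0.15 to 0.16 (above 0 without Rhesus 2, 6, 10 or 11) and *CGA* -0.53 to 0.0038 (above 0 without Rhesus 3). A pseudocount of 0.1 changed no call. The cause of these changes was not tested. The depth leaves *CGA*, *GH1* and *PRL* outside the pituitary near or under 3 counts in most libraries. With 4 animals a group, age and sex effects on the spread seen for *LHB* and *FSHB* are imprecise.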
